A study of Rattus norvegicus with 30 samples.

Results

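Umod, Slc12a1, Egf, Casr and Ptger3 are 5 genes of the thick ascending limb (TAL), the part of the loop of Henle that runs from the outer medulla (OM) up into the renal cortex (Cx). They were picked by gene name from the 32545 genes of the deposited mRNAseq table, with earlier results of these data known, and all 5 were found there. Male Sprague-Dawley rats, an outbred stock, were kept on a diet of 0.4% NaCl (LS) or were switched from it to 4.0% NaCl for 14 d (HS14) or 21 d (HS21). Cx and OM of the right kidney were profiled in 5 libraries per tissue and diet, 30 in all, and no transgene is described for any group. The study's methods give an age at surgery, and an infusion of heparinized saline through catheters, for rats with implanted flow probes. The study states that separate, parallel groups of rats gave the Cx and OM tissue, though its methods describe the kidney collection together with the implanted rats. The sources used here do not say whether the tissue groups carried such implants or how old each group was at collection.

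TAL cells reabsorb NaCl without water, which dilutes the tubular fluid and builds the salt gradient of the medulla. The entry step is the apical cotransporter NKCC2, the product of Slc12a1 and the target of loop diuretics, while K+ recycles through the apical channel encoded by Kcnj1. The medullary limb is known mainly for NaCl transport, and the cortical limb also reabsorbs Ca2+ and Mg2+ between its cells. Casr encodes the calcium-sensing receptor, which restrains that reabsorption, and Ptger3 encodes the prostaglandin E receptor EP3, which opposes cyclic AMP. Umod encodes uromodulin, the glycoprotein that TAL cells release into the urine, and Egf encodes the precursor of epidermal growth factor, which is made in the TAL and in the distal convoluted tubule (DCT). Slc12a1 is known to be spliced into forms that differ along the limb, which counts per gene do not separate.

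In the Ensembl annotation of Rnor_6.0, the build of the deposited table, all 5 genes are protein coding. Slc12a1 (ENSRNOG00000005367) lies on chromosome 3 from 117421604 to 117498367, Umod (ENSRNOG00000015557) on chromosome 1 from 189186026 to 189199376 and Egf (ENSRNOG00000053979) on chromosome 2 from 68820615 to 68895920. Casr (ENSRNOG00000002265) lies on chromosome 11 from 67188630 to 67258771 and Ptger3 (ENSRNOG00000010325) on chromosome 2 from 263895241 to 263979698. Each count covers the reads on the whole gene, and the lowest count of any of the 5 genes in any library was 606 reads.

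The sequences upstream of 3 of these genes are shown because Umod and Slc12a1 rose together in Cx at HS21 and Ptger3 did not. Each is the 250 bases before a transcript start in RefSeq's GRCr8 annotation, a newer build than that of the counts, read 5′ to 3′ on the strand of the gene. They lie at chr1:183261017-183261266 (minus strand) for Umod, at chr3:132859409-132859658 (plus strand) for the first of 2 starts listed for Slc12a1 and at chr2:249264832-249265081 (plus strand) for Ptger3. Capitals mark the letters TATAAA, known from TATA boxes.
Umod: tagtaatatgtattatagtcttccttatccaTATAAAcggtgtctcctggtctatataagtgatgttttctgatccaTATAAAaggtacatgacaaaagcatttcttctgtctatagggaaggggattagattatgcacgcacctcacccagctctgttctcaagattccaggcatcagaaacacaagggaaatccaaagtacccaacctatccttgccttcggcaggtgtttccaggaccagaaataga
Slc12a1: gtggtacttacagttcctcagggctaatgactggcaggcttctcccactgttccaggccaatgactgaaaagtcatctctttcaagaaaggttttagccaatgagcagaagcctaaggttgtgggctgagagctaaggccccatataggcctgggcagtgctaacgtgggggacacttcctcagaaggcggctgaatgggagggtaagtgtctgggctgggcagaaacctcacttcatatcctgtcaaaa
Ptger3: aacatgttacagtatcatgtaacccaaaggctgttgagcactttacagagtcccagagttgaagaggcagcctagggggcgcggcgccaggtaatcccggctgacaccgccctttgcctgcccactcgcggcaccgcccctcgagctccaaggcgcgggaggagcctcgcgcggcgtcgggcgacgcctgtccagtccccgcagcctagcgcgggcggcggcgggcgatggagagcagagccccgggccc
TATAAA occurred at 2 places in the Umod window, beginning 219 and 173 bases before the start, and in neither of the other windows. Whether either place acts as a TATA box for this start was not tested. On either strand, it occurred in 12.9% of the 33469 windows of this length in the RefSeq table. The short letters GTTAAT (known from HNF1 factors, 6.45% of windows), AAGGTCA (known from ERR receptors, 3.99%) and TGACG (known from cyclic AMP response elements, 18.2%) were searched on both strands and were not found in these 3 windows. Of the bases shown, 40.8% were G or C for Umod, 51.6% for Slc12a1 and 68.4% for Ptger3, against a median of 51.2% over all windows. None of the letters searched was shared by the Umod and Slc12a1 windows. The part of these sequences in the changes of expression was not tested.

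The libraries held between 5408126 and 21842843 counts on genes. The lowest total was that of replicate 10 of OM HS14, and the other 29 libraries held at least 12748841. Expression is given as CPM, a gene's count relative to the total of its library in megacounts, after scaling factors (edgeR's TMM) had been applied to the totals. Lists of markers of other kidney cells were summed in each library to check the labelled tissue. The DCT list summed to 1411 to 4539 CPM in the 15 Cx libraries and to 19.6 to 427 CPM in the 15 OM libraries, with Pvalb at 0 counts in every library, and the podocyte list to 568 to 823 CPM in Cx and 123 to 262 CPM in OM. The DCT and podocyte lists thus separated the tissues as labelled. The sums of the proximal tubule, principal cell, intercalated cell, endothelial and leukocyte lists overlapped between the tissues.

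3 libraries stood apart within their groups, and results that rest on them are given below with and without them. Replicate 2 of OM LS held 16546 CPM of the proximal tubule list against a median of 8303 CPM over its group, and 427 CPM of the DCT list against a group median of 30.8 CPM. Replicate 10 of OM HS14 had the fewest counts. By the study's mapping statistics it also had the lowest share of bases in exons and the highest in introns of all 30 libraries. Replicate 10 of Cx HS14 held the lowest proximal tubule sum of its group (11719 CPM, group median 15502 CPM) and the highest DCT sum (3308 CPM, group median 1969 CPM). Every sample is a piece of tissue with many cell types, so fewer cells of a type and less RNA per cell cannot be told apart.

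All 5 genes were detected at every diet in both tissues. Levels of different genes are compared per kilobase of the gene length given by the authors. Umod was the highest of the 5 in every library of both tissues. On LS it stood at 513 ± 91.2 CPM per kb in Cx and at 4766 ± 1011 CPM per kb in OM (SD, n = 5). In Cx LS, Slc12a1 (69.8 ± 7.64 CPM per kb) and Egf (65.5 ± 11.5 CPM per kb) followed, did not differ beyond their spread and changed places in 1 of 5 libraries. Ptger3 (25.1 ± 1.65 CPM per kb) and Casr (13.6 ± 1.32 CPM per kb) were the lowest 2, in this order in 5 of 5 libraries. In OM LS, Slc12a1 was second at 1094 ± 376 CPM per kb, and Egf (88.3 ± 15.7 CPM per kb) and Ptger3 (73.0 ± 27.7 CPM per kb) overlapped, with Egf the higher in 3 of 5 libraries. Casr was last in OM LS too, at 29.6 ± 3.01 CPM per kb.

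**Figure D1:**
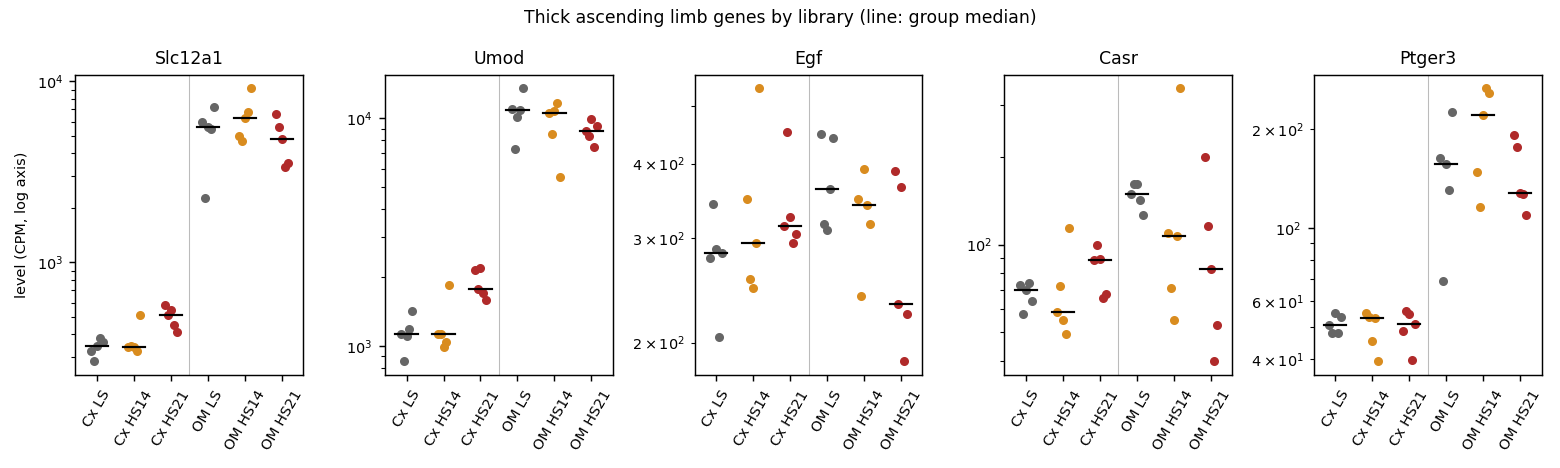
Level of each of the 5 genes in CPM (log axis, scaled separately for each gene) in each of the 30 libraries, by tissue and diet, with a line at the group median. Slc12a1, Umod and Ptger3 lie higher in every OM library than in any Cx library, the Egf values of the tissues overlap, and Casr spreads widely in OM HS14 (55.1 to 343 CPM) and OM HS21 (39.8 to 200.1 CPM).

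To contrast the cortical and medullary limbs, OM was compared with Cx on the same diet. Both are whole tissues, so each ratio also holds the share of TAL cells in the tissue and the transcripts of other segments. For Egf these include the DCT, whose markers were far higher in Cx. Slc12a1, the transporter, differed most. On LS it stood at 283, 325, 344, 362 and 379.8 CPM in Cx and at 2275, 5483, 5631, 5989 and 7189 CPM in OM. The lowest OM value was that of replicate 2, the library with the most proximal tubule transcripts, and still lay above every Cx library. The log2 ratio of OM to Cx was 3.96 (SE 0.28, adjusted *P* = 4.97e-06), a 15.5-fold difference. Without replicate 2 of OM LS the log2 ratio was 4.14. At HS14 the log2 ratio was 4.11 (SE 0.27, adjusted *P* = 2.56e-06) and at HS21 it was 3.27 (SE 0.22, adjusted *P* = 2.33e-06), a 9.65-fold difference.

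Umod followed. It stood at 853, 1106, 1129.7, 1187 and 1419.5 CPM in Cx LS and at 7293, 10125, 10924, 11025 and 13554 CPM in OM LS, again without overlap. The log2 ratio of OM to Cx was 3.21 (SE 0.20, adjusted *P* = 2.66e-06) on LS, 2.93 (SE 0.27, adjusted *P* = 1.51e-05) at HS14 and 2.23 (SE 0.14, adjusted *P* = 1.64e-06) at HS21. These correspond to 9.23-fold, 7.63-fold and 4.69-fold higher levels in OM.

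The receptor genes differed less. Ptger3 stood at 47.9 to 55.4 CPM in Cx LS (median 50.7) and at 69.1, 130.5, 157, 163 and 225 CPM in OM LS. Its log2 ratio of OM to Cx was 1.53 (SE 0.24, adjusted *P* = 0.000649) on LS, 2.05 (SE 0.25, adjusted *P* = 0.000101) at HS14 and 1.56 (SE 0.17, adjusted *P* = 5.44e-05) at HS21, and on each diet the tissues did not overlap. Casr stood at 58.0 to 73.9 CPM in Cx LS (median 69.7) and at 126 to 162 CPM in OM LS (median 149), and OM exceeded Cx by 1.12 on the log2 scale (SE 0.10, adjusted *P* = 1.74e-05). By the study's mapping statistics, every OM LS library had a higher share of bases in introns than every Cx LS library. Within OM LS, Casr was highest in replicate 2, which had the lowest such share of its group. The part of these shares in the Casr ratio was not tested. On high salt the Casr values of the tissues overlapped. The log2 ratio of Casr was 1.01 (SE 0.49, adjusted *P* = 0.158) at HS14 and 0.28 (SE 0.38, adjusted *P* = 0.636) at HS21, and at HS14 it fell to 0.28 without replicate 10 of OM HS14, whose 343 CPM was the highest Casr value of all libraries.

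Egf, the precursor of a secreted growth factor, did not pass the test between the tissues on any diet. It stood at 204, 278, 283, 287 and 342 CPM in Cx LS and at 309, 316, 362, 442 and 449 CPM in OM LS, with 3 of 5 OM libraries above every Cx library. The log2 ratio of OM to Cx was 0.42 (SE 0.15, adjusted *P* = 0.0505) on LS, just outside the threshold of 0.05, and DESeq2's Wald test called it (adjusted *P* = 0.0265). Without replicate 2 of OM LS it was 0.46 (adjusted *P* = 0.0306). At HS14 the ratio was −0.03 (SE 0.22, adjusted *P* = 0.937; 0.16 with total counts as the scale) and at HS21 −0.26 (SE 0.21, adjusted *P* = 0.402).

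On LS, 4 of the 5 genes were raised in OM, as were 21.3% of all genes tested, and these 4 were also the ones whose tissues did not overlap, as held in the same direction for 13.2% of all genes. At HS14 and at HS21 the same 3 genes, Slc12a1, Umod and Ptger3, were raised, against 15.7% and 17.3% of all genes, and these 3 did not overlap, against 12.4% and 12.3% of all genes. For each gene without overlap the two-sided exact permutation test over the libraries gave *P* = 0.00794, the smallest that 5 against 5 libraries allow. At HS21, where same-numbered libraries were taken as pairs, OM was higher in 5 of 5 pairs for Slc12a1, Umod and Ptger3, and exact sign flips of the paired differences gave *P* = 0.0625, the smallest that 5 pairs can give, so that this test could not pass 0.05. With the replicate block in the fit across all genes, the same 3 genes were called at HS21 (Slc12a1 3.23, adjusted *P* = 1.55e-05; Umod 2.24, adjusted *P* = 2.58e-05; Ptger3 1.54, adjusted *P* = 0.000206). With total counts in place of the trimmed mean, the balance of all genes moved from 3051 raised and 2794 lowered to 5546 and 1842 on LS, from 2275 and 1872 to 3587 and 1403 at HS14 and from 2536 and 2119 to 3660 and 1693 at HS21. That scale moved the median log2 ratio of all genes to 0.27, 0.21 and 0.12 on the 3 diets. The 4 calls on LS and the 3 calls on each high salt diet were made with it too, and Egf on LS was called as well (0.68, adjusted *P* = 0.0126).

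**Figure D2:**
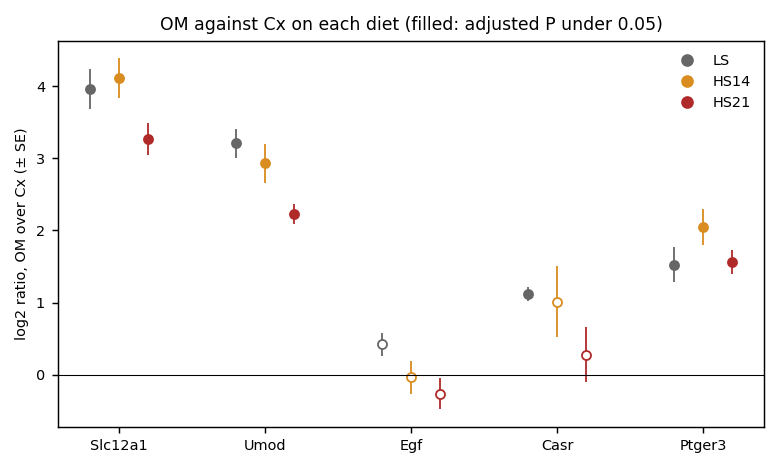
Log2 ratio of OM to Cx with its SE for the 5 genes on LS, HS14 and HS21 (5 libraries per tissue and diet), with filled points at an adjusted P under 0.05. Slc12a1 (3.96, 4.11 and 3.27) and Umod (3.21, 2.93 and 2.23) lie highest, and no Egf point (0.42, −0.03 and −0.26) is filled.

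To set the members against each other inside a library, each count was divided by the Slc12a1 count of the same library. This removes the sequencing depth, though nearly every gene is low relative to Slc12a1 in OM: 98.1%, 98.4% and 97.9% of all genes tested were lowered on LS, HS14 and HS21 when Slc12a1 was the scale, so a lowered ratio is not particular to these genes. Umod had 3.01, 3.13, 3.22, 3.47 and 3.92 counts per Slc12a1 count in Cx LS and 1.80, 1.84, 1.89, 1.99 and 3.21 in OM LS, where the highest value was that of replicate 2. The difference of OM from Cx in the mean log2 ratio was −0.67 on LS (two-sided exact permutation *P* = 0.0238), −1.14 at HS14 and −0.995 at HS21 (exact permutation *P* = 0.00794 for both). In the fit across all genes, Umod per Slc12a1 was not called on LS (log2 ratio −0.64, SE 0.33, adjusted *P* = 0.0732) and was called without replicate 2 of OM LS (−0.83, adjusted *P* = 0.000166). In replicate 10 of OM HS14 there were 0.599 Umod counts per Slc12a1 count, against 1.72 to 2.11 in the other libraries of that group, and without it the difference at HS14 was −0.82 (exact permutation *P* = 0.00794).

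The other 3 genes lay further below Slc12a1 in OM. Egf is also made in the DCT, so its ratio in Cx is not that of the cortical limb alone. Egf had 0.537 to 1.21 counts per Slc12a1 count in Cx LS and 0.0549 to 0.139 in OM LS, Casr had 0.177 to 0.223 and 0.0175 to 0.0711, and Ptger3 had 0.127 to 0.169 and 0.0238 to 0.0313. The difference of OM from Cx in the mean log2 ratio on LS was −3.45 for Egf, −2.75 for Casr and −2.44 for Ptger3, and on each diet every OM library lay below every Cx library for these 3 genes (exact permutation *P* = 0.00794 for each). With the pairs of HS21, sign flips gave the smallest exact *P* of 0.0625 for all 4 ratios. The median over all genes in the fit scaled by Slc12a1 was −3.73 on LS, which the fitted values of Casr (−2.58) and Ptger3 (−2.44) exceeded and that of Egf (−3.41) lay near. The ratio of Ptger3 to Slc12a1 lay between 0.0238 and 0.0394 in all 15 OM libraries, and the Ptger3 level there ranged from 69.1 to 266 CPM. How many other genes held as narrow a ratio to Slc12a1 was not tested.

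**Figure D3:**
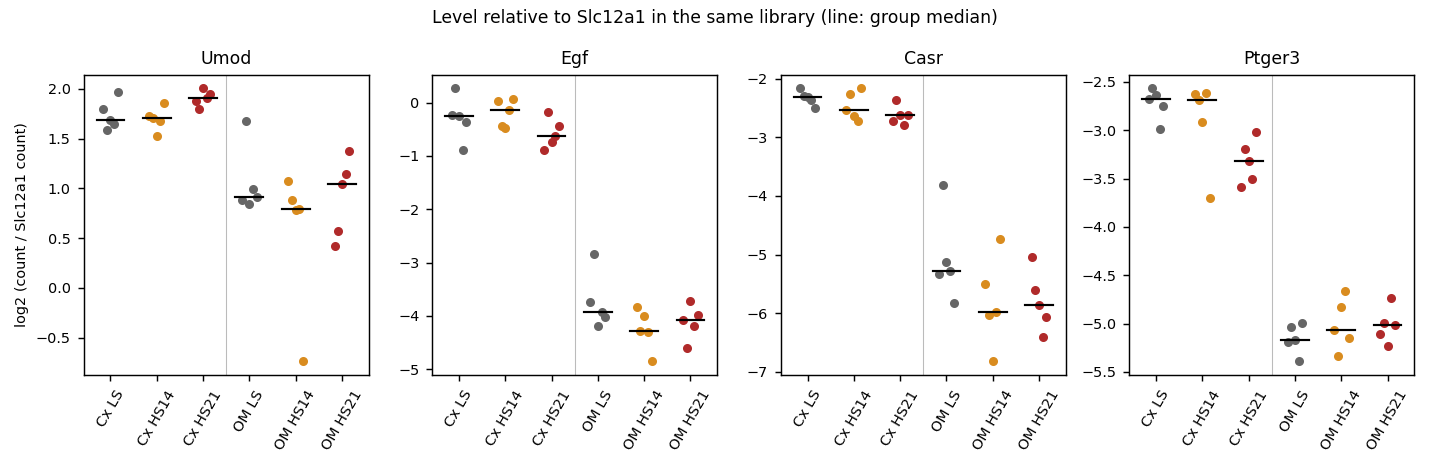
Counts of Umod, Egf, Casr and Ptger3 per Slc12a1 count in the same library (log2 scale, one axis per gene), by tissue and diet, with a line at the group median. All 4 genes lie lower in OM than in Cx by group median, and in Cx Ptger3 lies at 0.127 to 0.169 counts per Slc12a1 count on LS and at 0.0835 to 0.124 at HS21.

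The effect of the high salt diet was read within each tissue. HS14 and HS21 were compared with the same 5 LS libraries, so the 2 comparisons share their controls. In Cx at HS14, 0 of the 5 genes were called, as were 2.33% of all genes by edgeR's quasi-likelihood test, and 0 of the 5 had an unadjusted *P* under 0.05 or were called by DESeq2. The log2 ratios to LS were 0.10 (SE 0.18) for Umod, 0.12 (SE 0.13) for Slc12a1, 0.26 (SE 0.21) for Egf, 0.03 (SE 0.20) for Casr and −0.07 (SE 0.09) for Ptger3. Without replicate 10 of Cx HS14, the ratios of Umod, Slc12a1, Egf and Casr were −0.11, −0.03, 0.015 and −0.23.

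In Cx at HS21, Umod and Slc12a1 rose. Umod stood at 1595, 1703, 1775, 2149.7 and 2196 CPM, above every LS library and 1.64-fold their level (log2 ratio 0.71, SE 0.13, adjusted *P* = 0.00132). Slc12a1 stood at 413, 452, 512, 546 and 584 CPM, also above every LS library, and 1.47-fold their level (log2 ratio 0.55, SE 0.10, adjusted *P* = 0.00145). Both genes were called whichever of the 10 libraries was left out, with log2 ratios of 0.63 to 0.80 for Umod and 0.49 to 0.62 for Slc12a1. For each gene the exact permutation test gave *P* = 0.00794.

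The other members did not pass the test in Cx at HS21. Egf stood at 294, 304, 314, 326 and 452 CPM (log2 ratio to LS 0.26, SE 0.14, adjusted *P* = 0.167), and without the highest of these, replicate 12, its log2 ratio was 0.15. Casr stood at 65.6, 67.5, 88.2, 89.5 and 99.3 CPM (log2 ratio 0.26, SE 0.12, adjusted *P* = 0.0964), and 3 of its 5 HS21 values lay above every LS value. Casr was called without replicate 14 of Cx HS21 (0.34, adjusted *P* = 0.0263) and without replicate 15 (0.33, adjusted *P* = 0.0346). Ptger3 stood at 39.8, 48.8, 51.0, 54.7 and 55.8 CPM around its LS values (log2 ratio −0.05, SE 0.09, adjusted *P* = 0.708; 0.08 with total counts as the scale). Thus 2 of the 5 genes were raised, against 18.9% of all genes tested, and 0 were lowered, against 20.5%. The groups of these 2 genes did not overlap, as held for 12.6% of all genes in this direction. With total counts as the scale 4401 genes were raised and 1653 lowered in place of 2702 and 2936, the median of all genes was 0.13, and Egf (0.39, adjusted *P* = 0.0431) and Casr (0.39, adjusted *P* = 0.0160) were called as well.

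On the scale of Slc12a1, which itself rose in Cx at HS21, the median of all genes differed from LS by −0.55 in the mean log2 ratio, and 45.8% of all genes lay below LS without overlap. Ptger3 went from 0.127, 0.149, 0.156, 0.161 and 0.169 counts per Slc12a1 count on LS to 0.0835, 0.0881, 0.1003, 0.109 and 0.124, also without overlap. Its difference of −0.60 (two-sided exact permutation *P* = 0.00794) lay near that median, so it is not a result about Ptger3. Casr per Slc12a1 differed by −0.30 (exact permutation *P* = 0.0159) with overlap of the groups, Egf by −0.28 (exact permutation *P* = 0.246) and Umod by 0.17 (exact permutation *P* = 0.0714). These diet comparisons of ratios, 24 in all over both tissues and the 3 pairs of diets and 4 genes, were added after the levels had been seen, and their *P* values are not adjusted for that number.

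Against HS14, Umod was raised in Cx at HS21 (0.62 on the log2 scale, SE 0.18, adjusted *P* = 0.0382), and Slc12a1 stood at 0.43 (SE 0.14, adjusted *P* = 0.0616). Casr stood at 0.23 (SE 0.22, adjusted *P* = 0.504), Ptger3 at 0.02 (SE 0.11, adjusted *P* = 0.895) and Egf at 0.0018 (SE 0.21, adjusted *P* = 0.997). So 1 of the 5 genes was raised, against 6.5% of all genes, and 0 were lowered, against 9.69%. The HS14 group held replicate 10, in which Umod (1851 CPM, other libraries 989.6 to 1131 CPM) and Slc12a1 (511 CPM, other libraries 324 to 347 CPM) lay within the range of HS21. Without it, Umod, Slc12a1 and Casr were raised, at 0.81, 0.57 and 0.48. The call of Umod was lost on leaving out 8 of the 10 libraries singly and kept without replicate 10 of Cx HS14 and without replicate 15 of Cx HS21. With total counts 2084 genes were raised and 644 lowered in place of 935 and 1395.

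In OM none of the 5 genes passed the test in any comparison of diets. In OM at HS14, 0 of the 5 were called, against 0.00694% of all genes, at HS21 0, against 0.769%, and between HS21 and HS14 0, against 0.0% (337 genes higher and 210 lower at an unadjusted *P* under 0.05 in edgeR, and 17 and 10 called by DESeq2). None of the 5 had an unadjusted *P* under 0.05 in these 3 comparisons or was called by DESeq2. Slc12a1 stood at 4655 to 9172 CPM at HS14 (median 6260.0) and 3379 to 6582 CPM at HS21 (median 4805), and Umod at 5498 to 11657 CPM (median 10501) and 7499 to 9942 CPM (median 8808). The log2 ratios of HS21 to LS were −0.17 (SE 0.31) for Slc12a1, −0.30 (SE 0.18) for Umod, −0.45 (SE 0.22) for Egf, −0.60 (SE 0.38) for Casr and −0.04 (SE 0.28) for Ptger3. Those of HS14 to LS were 0.27 (SE 0.33), −0.18 (SE 0.27), −0.20 (SE 0.18), −0.09 (SE 0.45) and 0.45 (SE 0.32) in the same order of genes, and those of HS21 to HS14 were −0.44 (SE 0.28), −0.11 (SE 0.22), −0.25 (SE 0.23), −0.53 (SE 0.58) and −0.49 (SE 0.27).

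Single libraries moved several of these values, with no member called. Without replicate 10 of OM HS14, the ratio of HS14 to LS was −0.81 (SE 0.21, adjusted *P* = 0.330) for Casr, 0.072 for Slc12a1, −0.048 for Umod, −0.21 for Egf and 0.32 for Ptger3, and that of HS21 to HS14 was 0.20 for Casr, −0.24 for Slc12a1, −0.24 for Umod and −0.35 for Ptger3. Without replicate 2 of OM LS, the ratio of HS14 to LS was 0.076 for Slc12a1, −0.29 for Umod, −0.050 for Casr and 0.26 for Ptger3. In the same omission, the ratio of HS21 to LS was −0.36 for Slc12a1, −0.40 for Umod, −0.50 for Egf, −0.57 for Casr and −0.22 for Ptger3.

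The spread between libraries was wider in OM than in Cx for most of these ratios, as the SEs show, and Casr spread most. On LS its 5 OM values lay within 1.29-fold of each other. At HS14 they were 55.1, 71.1, 107, 109.6 and 343 CPM, and at HS21 39.8, 52.9, 82.4, 116 and 200.1 CPM, a range of 6.22-fold and 5.03-fold. At both times 4 of 5 OM libraries lay below every LS library and 1 above (exact permutation *P* = 0.381 at HS14 and 0.103 at HS21). The highest Casr value at HS14 was in replicate 10, the library with the fewest counts and the highest intronic share. That library also had the highest Slc12a1 (9172 CPM) and the lowest Umod (5498 CPM) of its group. The highest Casr value at HS21 was in replicate 11, which also had the highest Slc12a1 (6582 CPM), Egf (388 CPM) and Ptger3 (191 CPM) of its group. Replicate 11 had the highest intronic share of OM HS21 too. The part of such library differences in the spread of Casr was not tested.

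**Figure D4:**
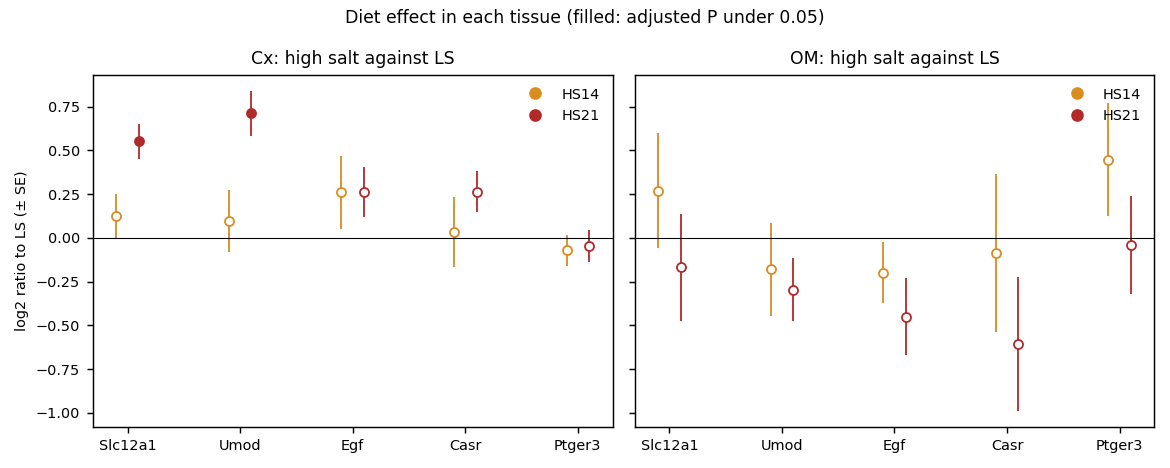
Log2 ratio to LS with its SE at HS14 and HS21 for the 5 genes in Cx (left) and OM (right), 5 libraries per group, with filled points at an adjusted P under 0.05. Only Umod (0.71) and Slc12a1 (0.55) in Cx at HS21 are filled, and the error bars in OM are longer than those in Cx for most genes.

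The interaction of tissue and diet, the OM effect minus the Cx effect, tested whether the response to salt was the same in both tissues. At HS14, 0 of the 5 genes were called, against 0.0% of all genes (281 higher and 278 lower at an unadjusted *P* under 0.05 in edgeR, and 7 and 2 called by DESeq2). None of the 5 was called by DESeq2 or had an unadjusted *P* under 0.05. The values were 0.12 (SE 0.35) for Slc12a1, −0.31 (SE 0.31) for Umod, −0.49 (SE 0.29) for Egf, −0.15 (SE 0.53) for Casr and 0.49 (SE 0.35) for Ptger3. At HS21 the interaction was −1.01 for Umod (SE 0.22, adjusted *P* = 0.0415), so that 1 of the 5 genes was called as lowered, against 0.217% of all genes. The effects behind it were the log2 ratios of 0.71 in Cx and −0.30 in OM. With the replicate number as a block the interaction of Umod was −1.0 (adjusted *P* = 0.0246). That block also pairs the LS libraries, though the numbers were taken as pairs on HS21 only. The call held in 4 of 20 fits that left out 1 library, those without replicate 5 of Cx LS, replicate 15 of Cx HS21, replicate 2 of OM LS or replicate 11 of OM HS21, and in the other 16 the adjusted *P* rose to at most 0.0875. The interactions of Slc12a1 (−0.72, SE 0.33, adjusted *P* = 0.296), Egf (−0.72, SE 0.28, adjusted *P* = 0.223), Casr (−0.88, SE 0.41, adjusted *P* = 0.315) and Ptger3 (0.00 to 2 decimals, SE 0.30) did not pass the test. Without replicate 2 of OM LS, Slc12a1 was called too (−0.90, adjusted *P* = 0.0289).

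Other genes of the TAL were read from 4 lists with 43 genes, of which 42 were found and 41 passed the filter on low counts. In Cx at HS21, 20 of the 41 were raised and 6 lowered, against 18.9% and 20.5% of all genes, with a median log2 ratio of 0.48 against 0.00 over all genes. Among the largest rises were those of Slc9a2 (0.88, SE 0.19, adjusted *P* = 0.00409), a Na+/H+ exchanger, and of Tmem52b (0.86, SE 0.17, adjusted *P* = 0.00216). Both were among the 5 listed genes called lower in OM than in Cx on LS (−0.80 and −2.51), where 22 were higher. The K+ channel gene Kcnj1 (0.83), Bsnd (0.71), which encodes barttin, and Stk39, which encodes the kinase SPAK that activates NaCl cotransporters (0.71), were raised too. The largest falls were in Ptgs2, the cyclooxygenase 2 gene (−1.46, SE 0.41, adjusted *P* = 0.0139), in Cldn10, a claudin gene (−0.68, SE 0.11, adjusted *P* = 0.000534), and in Pth1r, the parathyroid hormone receptor gene (−0.51, SE 0.10, adjusted *P* = 0.00241). Cldn16 (0.39, SE 0.16) and Cldn19 (0.39, SE 0.16), the claudins of Ca2+ and Mg2+ reabsorption, did not pass the test. Several listed genes are also expressed in the proximal tubule, DCT or collecting duct.

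By list, read against those 18.9% and 20.5% of all genes, 6 of 15 transport genes were raised and 3 lowered, 6 of 11 receptor and regulator genes were raised and 2 lowered, 2 of 8 transcription factor genes were raised and 1 lowered, and 6 of 7 genes of markers and secretion were raised and 0 lowered. Leaving out 1 library gave 18 to 24 raised and 5 to 8 lowered of the 4 lists together, and total counts as the scale gave 29 and 4. In Cx at HS14, where 2.33% of all genes were called, 0 were raised and 1 was lowered, Ptgs2 at −1.82 (SE 0.36, adjusted *P* = 0.0277). Against HS14, 1 was raised at HS21 (Irx1, 0.62) and 3 were lowered (Slc9a3, −0.56; Kcnj16, −0.35; Slc4a2, −0.17), against 6.5% and 9.69% of all genes, and without replicate 10 of Cx HS14 the counts were 20 and 3. In OM, 0 of the 41 were raised or lowered in any comparison of diets, by edgeR or by DESeq2, against at most 0.769% of all genes in edgeR. The interaction at HS21 called 0 of the 41, with 0.217% of all genes lowered, and 1 raised and 11 lowered without replicate 2 of OM LS.

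In Cx at HS21, markers of other cells moved as well, beside the 18.9% of all genes raised and 20.5% lowered. Of the proximal tubule list 6 of 8 genes were lowered and 1 raised, and its sum was 9380 to 12657 CPM at HS21 against 15329 to 17189.6 CPM on LS. The raised gene was Slc22a7 (1.70, SE 0.63, adjusted *P* = 0.0494), and Slc7a13 stood at 0.98 (SE 0.50, adjusted *P* = 0.144). On LS these were the 2 genes of that list raised in OM against Cx (6.50 and 5.89), and 5 of the list were lowered there. All 3 tested DCT genes were raised, with a sum of 2160 to 4539 CPM against 1411 to 1853 CPM, and Slc12a3, the NaCl cotransporter of the DCT, rose by 0.83 (SE 0.15, adjusted *P* = 0.00132). Of the principal cell list 4 of 5 genes were raised, of the intercalated cell list 4 of 4, of the podocyte list 3 of 4, of the endothelial list 2 of 4 and of the leukocyte list 6 of 6, the last with a sum of 1079 to 2934 CPM against 791 to 938 CPM. In replicate 10 of Cx HS14 the DCT and intercalated cell sums were the highest and the proximal tubule sum the lowest of the group, as Umod and Slc12a1 were the highest. The part of these shifts in the rise of Umod and Slc12a1 was not tested.

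In OM, the proximal tubule sum ranged from 1425 to 16546 CPM on LS, from 2814 to 8255 CPM at HS14 and from 2679 to 7984 CPM at HS21, around medians of 8303, 5682 and 7462 CPM, so that libraries within a group differed more widely than these medians. The highest value was in replicate 2 of OM LS, in which Slc12a1 (2275 CPM) and Ptger3 (69.1 CPM) were the lowest of the 15 OM libraries. The lowest was in replicate 5 of OM LS, in which Slc12a1 (7189 CPM), Umod (13554 CPM) and Ptger3 (225 CPM) were the highest of their group. The leukocyte sum was 329 to 713 CPM on LS and 1042 to 1873 CPM at HS21. The part of these differences in the OM values was not tested.

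**Figure D5:**
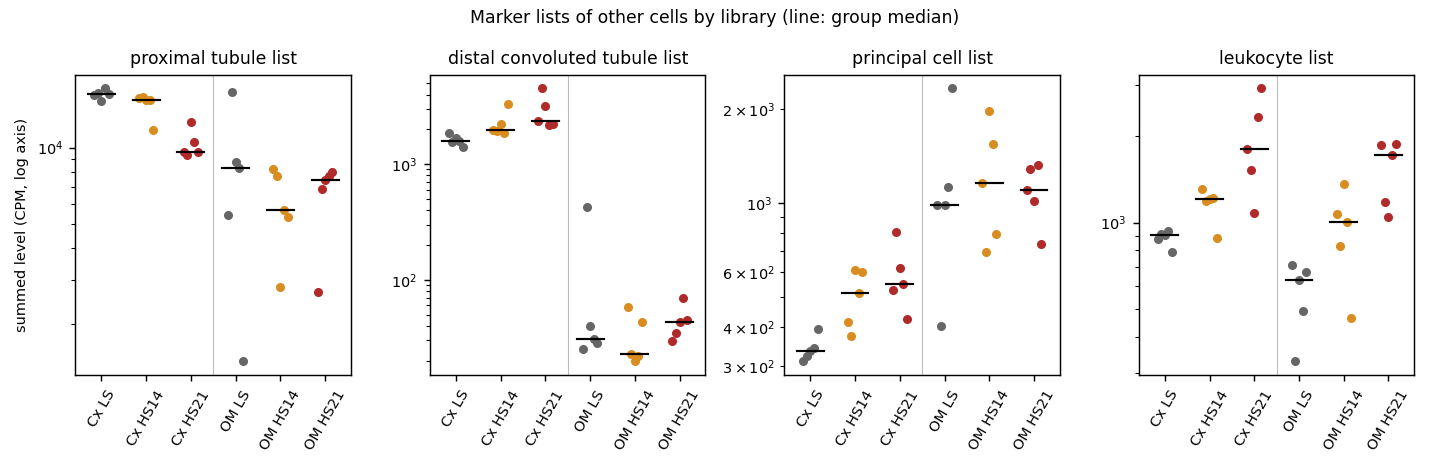
Summed CPM (log axis, scaled separately for each list) of the proximal tubule, DCT, principal cell and leukocyte lists in each of the 30 libraries, with a line at the group median. In Cx the proximal tubule sum is lower at HS21 (9380 to 12657 CPM) than on LS (15329 to 17189.6 CPM), and in OM LS one library, replicate 2, lies at 16546 CPM.

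Between the tissues, 22 of the 41 listed TAL genes were higher in OM on LS and 5 lower, against 21.3% and 19.5% of all genes. At HS14 the counts were 21 and 5, against 15.7% and 13%, and at HS21 21 and 7, against 17.3% and 14.5%. Among the largest differences on LS were those of the Iroquois transcription factor genes Irx1 (3.70, SE 0.20, adjusted *P* = 1.27e-06) and Irx2 (3.64, SE 0.29, adjusted *P* = 1.06e-05), close to the 3.96 of Slc12a1. Irx1 stood at 3.80 at HS14 and 3.20 at HS21, and Irx2 at 3.82 and 3.03. Lower in OM on LS were Tmem52b (−2.51, SE 0.64, adjusted *P* = 0.00996), Pth1r (−1.75, SE 0.41, adjusted *P* = 0.00628) and Wnk1 (−1.75, SE 0.30, adjusted *P* = 0.00109), which encodes a kinase upstream of SPAK. Tmem52b (−3.46 and −3.94) and Wnk1 (−2.21 and −2.82) were the 2 lowest at HS14 and at HS21, followed by Pth1r at HS14 (−2.01) and Slc9a2 at HS21 (−2.08). Cldn16 (2.26, SE 0.08) and Cldn19 (3.22, SE 0.27) were higher in OM on LS as well.

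The genes whose pattern over the 30 libraries was most like that of each member were found among 13535 protein-coding genes as those with the smallest root mean square difference in log2 CPM after each gene was centred on its own mean. For Slc12a1 they were Irx2 (0.334), Ephb2 (0.336) and Ccdc64 (0.346), and for Umod Kcnk1 (0.293), Cldn19 (0.315) and Kcnt1 (0.329). For Ptger3 they were Sh3bp4 (0.200), Rassf6 (0.256) and Mturn (0.259), for Casr Dst (0.306), Zfp652 (0.340) and Dsp (0.344) and for Egf Hoxd8 (0.247), Gfod2 (0.265) and Trim47 (0.267). The libraries share tissue and diet, so the measure follows tissue and diet differences of all kinds. Among the members themselves, the difference was smallest between Umod and Slc12a1 (0.601) and between Egf and Casr (0.604), and largest between Slc12a1 and Egf (1.88). The measure also depends on how much each gene varied. The root mean square about the gene's own mean was 1.90 for Slc12a1, 1.44 for Umod, 0.903 for Ptger3, 0.676 for Casr and 0.346 for Egf. Egf and Casr varied least, so their small difference does not show a shared pattern.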

How the data were processed

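Poly(A) mRNA of Cx and OM was sequenced on unstranded libraries. Per the submitters' processing notes and methods, reads were aligned to Rnor_6.0 with HISAT2 (2.0.5) and counted per gene with featureCounts (1.5.0-p3), so the reads of overlapping or antisense genes cannot be told apart. The authors deposited raw counts, FPKM values (used in 1 alternative, log2(FPKM + 1) with limma 3.58.1) and gene lengths. Their 35 columns of comparisons and group means were not used.

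Counts were tested with edgeR (4.0.16) by the quasi-likelihood test, after filterByExpr and trimmed mean of M values scaling, separately for the libraries of each comparison, with Benjamini-Hochberg adjustment over all genes tested and a threshold of 0.05. DESeq2 (1.42.0), other scalings, no filter, limma, a replicate block and leaving out each library were alternatives. Log2 CPM used a prior count of 2 and ratios to Slc12a1 a pseudocount of 0.5 counts. Single values were compared by exact permutation of 5 against 5 libraries (252 regroupings, two-sided). Scripts were tested on simulated data.

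The members and gene lists were chosen with earlier results of these data known. All 5 members are named in every comparison, of the other TAL genes those among the 3 largest called changes in each direction that can be reported by name, and 5 further listed genes (Kcnj1, Bsnd, Stk39, Cldn16 and Cldn19) chosen for their role after their values were seen, and for likeness the 3 nearest protein-coding genes, out of those averaging 1 CPM or more. Of the listed TAL genes Foxq1 was not analysed here. Some listed genes that the rule names are counted in the lists and not reported here by name.

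The labels number the replicates alike in both tissues, without stating that a number marks 1 rat. Over 15 same-numbered pairs the correlation of deviations from the group mean ranged from −0.08 to 0.51, and 11 were over 0.1. In 13 of the 15, the same-numbered OM library correlated most highly with the Cx library among the OM libraries of its diet. The exact permutations between tissues, and the fits without the replicate block, took the libraries as unpaired on every diet. Where a number marks 1 rat, those permutations ignore the pairing, so their *P* values are not those of a paired test. On HS21 all 5 same-numbered correlations were over 0.1 (0.28 to 0.51), so the numbers were taken to pair the tissues on that diet. Exact sign flips of those pairs were added after the data had been seen. Where nothing ties libraries to separate rats, *P* values measure the spread between libraries. No 2 libraries of a group were alike within counting noise (60 pairs, lowest mean squared difference 7.82 times the counting variance). Sequences are from RefSeq's table for GRCr8.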

Additional observations from a re-analysis of the deposited data

Results flagged for a closer look

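With Dixon's test at the 95% level, 7 values lay apart from the other 4 of their group, over 54 sets of 5 libraries. Chance alone gives about 1 in 20 such sets. Of these, 3 were in replicate 10 of Cx HS14. There Umod stood at 1851 CPM (other libraries 989.6 to 1131 CPM), Slc12a1 at 511 CPM (324 to 347 CPM) and Ptger3 at 0.0770 counts per Slc12a1 count (0.132 to 0.164). In replicate 2 of OM LS, Slc12a1 stood at 2275 CPM (5483 to 7189 CPM) and Umod at 3.21 counts per Slc12a1 count (1.80 to 1.99). In replicate 10 of OM HS14, the library with the fewest counts, Umod stood at 0.599 counts per Slc12a1 count (1.72 to 2.11). In replicate 12 of Cx HS21, Egf stood at 452 CPM (294 to 326 CPM).

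The effect of HS21 on Umod differed between OM and Cx by −1.01 on the log2 scale in the test of the interaction itself (edgeR, adjusted *P* = 0.0415). The call was lost in 16 of the 20 fits without 1 library and without the filter on low counts (adjusted *P* = 0.0803).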

How the results depend on the processing

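Of 345 values of the 5 genes under another tool, scaling, filter or test, 327 kept their direction and side of the threshold, 1 lost its call, 7 gained one and 10 changed sign, none of the last called. Total counts called 4 genes in Cx at HS21 against LS in place of 2, and 2 in place of 1 against HS14, where DESeq2 also called 2. Without the filter on low counts the interaction at HS21 called 0 in place of 1 (Umod, −1.01, adjusted *P* = 0.0803). The sign changes were Casr in Cx at HS14 (limma, −0.031), Ptger3 in Cx at HS21 (total counts, 0.081) and in OM at HS21 (limma, 0.016), Egf between tissues at HS14 (total counts 0.16, limma 0.0026, replicate block 0.011) and the Ptger3 interaction at HS21 (DESeq2 0.015, RLE factors 0.014, limma 0.074, replicate block 0.063). The causes were not tested. The replicate block changed no call of a gene.

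Leaving out 1 library gave 2 to 3 genes called in Cx at HS21 against LS (Casr as the additional gene), 0 to 3 against HS14, 4 to 5 between tissues on LS, 3 at HS14 and at HS21, and 0 to 2 for the interaction at HS21. Per Slc12a1 count it gave 3 to 4 on LS and 4 at HS14 and HS21. Over these fits 24 of 770 values lost a call, 10 gained one and 42 changed sign. The uncalled log2 values that changed sign ranged, in Cx at HS14 against LS, from −0.11 to 0.19 (Umod), −0.026 to 0.18 (Slc12a1) and −0.23 to 0.14 (Casr). In Cx at HS21 they ranged from −0.086 to 0.036 (Ptger3) against LS, and from −0.12 to 0.24 (Egf) and −0.051 to 0.096 (Ptger3) against HS14. In OM they ranged from −0.81 to 0.12 (Casr, HS14 against LS), −0.22 to 0.14 (Ptger3, HS21 against LS) and −0.98 to 0.20 (Casr, HS21 against HS14). Between tissues they ranged from −0.18 to 0.20 (Egf, HS14) and −0.16 to 0.48 (Casr, HS21). For the interaction they ranged from −0.073 to 0.27 (Slc12a1, HS14), −0.84 to 0.11 (Casr, HS14) and −0.16 to 0.19 (Ptger3, HS21). With 5 libraries a group and SEs of up to 0.58 in OM, smaller changes there could not be seen.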
